A study of Mus musculus with 12 samples.

Results

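The genes described here are the transcription factors that drive epithelial-mesenchymal transition (EMT), namely Snai1, Snai2, Zeb1, Zeb2, Twist1, Twist2 and Prrx1, together with the E-cadherin gene Cdh1, the N-cadherin gene Cdh2 and the vimentin gene Vim. They were taken by name, with no measured value used as a rule, though earlier results of these data were known. All 10 were measured, out of 18193 genes with a probe set of their own. They were read by 26 of the 34945 probe sets annotated to a single gene. A probe set is a group of short oligonucleotides on the array that together read the transcripts of a gene. Where a gene had several, the brightest over the 12 arrays stands for the gene, and the others are given beside it.

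The arrays, of the type GeneChip Mouse Genome 430 2.0, measured RNA of C790 cells, a murine melanoma line with mutated Nras. All 4 groups had been transduced with a lentiviral vector that expresses Oct4, Sox2 and Klf4 (with a blasticidin resistance gene) only in doxycycline, and with a vector for the rtTA3 activator and mCherry. Cells kept in reprogramming medium with doxycycline (+dox) are partially reprogrammed, and cells that carry both vectors but received no doxycycline (−dox) are the control. Both were studied on day 20 after 72 h with the solvent DMSO or with trametinib, an inhibitor of the kinase MEK, which gives −dox DMSO, −dox trametinib, +dox DMSO and +dox trametinib groups of 3 arrays each. The control thus holds the vectors but not doxycycline itself, so the drug doxycycline and the 3 factors cannot be told apart here. Cells with doxycycline were also selected with blasticidin from day 3, and whether the control was selected too is not given in the sources used here. The trametinib dose of the arrays is not given in the sources used here. The study speaks of independent experiments for its data in general, but the labels do not say whether the 3 arrays of a group are separate cultures, so p-values measure the spread between these arrays, which may be technical.

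In EMT, cells lose E-cadherin junctions and gain migratory features. SNAI and ZEB proteins are zinc finger repressors that bind E-boxes, short DNA elements, in the E-cadherin gene, TWIST proteins are basic helix-loop-helix factors, and PRRX1 is a homeobox factor. In the melanocytic lineage, SNAI2 and ZEB2 are part of normal melanocyte biology, while ZEB1 and TWIST1 are known from less differentiated melanoma states, and the MEK-ERK pathway is known to act on several of these factors.

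Promoter sequences are shown for Snai1, which fell with dox, and for Twist2, which fell with trametinib, beside Twist1, the closest relative of Twist2. Each is the 250 bases before the RefSeq start in build GRCm38.p6, 5′ to 3′ on the plus strand, with any CANNTG (the E-box, the same on both strands, of which CACCTG is a form) in capitals. They lie at chr2:167537945-167538194, chr12:33957421-33957670 and chr1:91801211-91801460 for Snai1, Twist1 and Twist2.
Snai1: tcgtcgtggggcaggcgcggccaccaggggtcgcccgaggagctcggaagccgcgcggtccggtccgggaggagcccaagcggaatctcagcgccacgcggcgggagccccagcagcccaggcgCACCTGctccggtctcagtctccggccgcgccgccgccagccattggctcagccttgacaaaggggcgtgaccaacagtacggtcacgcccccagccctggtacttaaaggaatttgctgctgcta
Twist1: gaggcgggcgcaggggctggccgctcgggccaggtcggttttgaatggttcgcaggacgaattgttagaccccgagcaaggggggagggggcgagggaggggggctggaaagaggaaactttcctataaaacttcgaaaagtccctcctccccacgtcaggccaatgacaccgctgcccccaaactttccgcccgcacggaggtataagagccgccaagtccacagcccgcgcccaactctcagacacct
Twist2: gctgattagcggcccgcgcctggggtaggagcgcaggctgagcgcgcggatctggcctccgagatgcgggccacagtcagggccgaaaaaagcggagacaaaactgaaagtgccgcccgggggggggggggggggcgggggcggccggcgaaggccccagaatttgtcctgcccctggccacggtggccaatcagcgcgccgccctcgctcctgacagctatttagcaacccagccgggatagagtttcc
The Snai1 window held 1 E-box, which starts at position -126 from the start and has the form CACCTG. The windows of Twist1 and Twist2 held none. Of 32851 RefSeq windows of this length, 66.2% held CANNTG and 17.2% held CACCTG or CAGGTG, so these matches are a description only. RefSeq windows were at hand for 6 of the 10 genes. TGANTCA, the AP-1 element, was found in 6.75% of all windows and, among these genes, in 1 window of Zeb2 only.

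The 12 arrays were alike in quality with 1 exception. The −dox DMSO array 1 correlated with the other −dox DMSO arrays at 0.959 and 0.961 over probe sets. All other pairs within a group reached 0.987 to 0.997. Among the EMT genes described here, leaving out −dox DMSO array 1 changed calls of Snai2, Twist2 and Prrx1 only. Those changes are given with and without it. Other changes are given with this array, and most of their values without it are not shown. Values are log2 intensities, on which a difference of 1 is a fold change of 2, and a mean under 4.86 was read as not above background, a level set from probe sets of sensory receptor genes. With trametinib the ERK target Dusp6 changed by -6.90 in +dox cells, and in −dox cells it fell to below background, by at least 7.20. Of 12 melanocyte lineage genes, Mitf, Sox10, Pax3 and Pmel were above background in every group, and the other 8, among them the pigment genes Tyr, Tyrp1 and Dct, were under it. The probe set of Pou5f1 (Oct4) rose with dox under DMSO from a mean of 4.63, under background, to 5.45 (adjusted p = 0.016 from limma). It rose as well with trametinib in −dox cells, which had no doxycycline, to 5.50 (adjusted p = 0.0032 from limma). With dox under DMSO, Sox2 changed by -1.53 (adjusted p = 0.091) and Klf4 by -0.15. Whether these probe sets read the vector's transcripts is not given, so they do not test the labels.

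**Figure D1:**
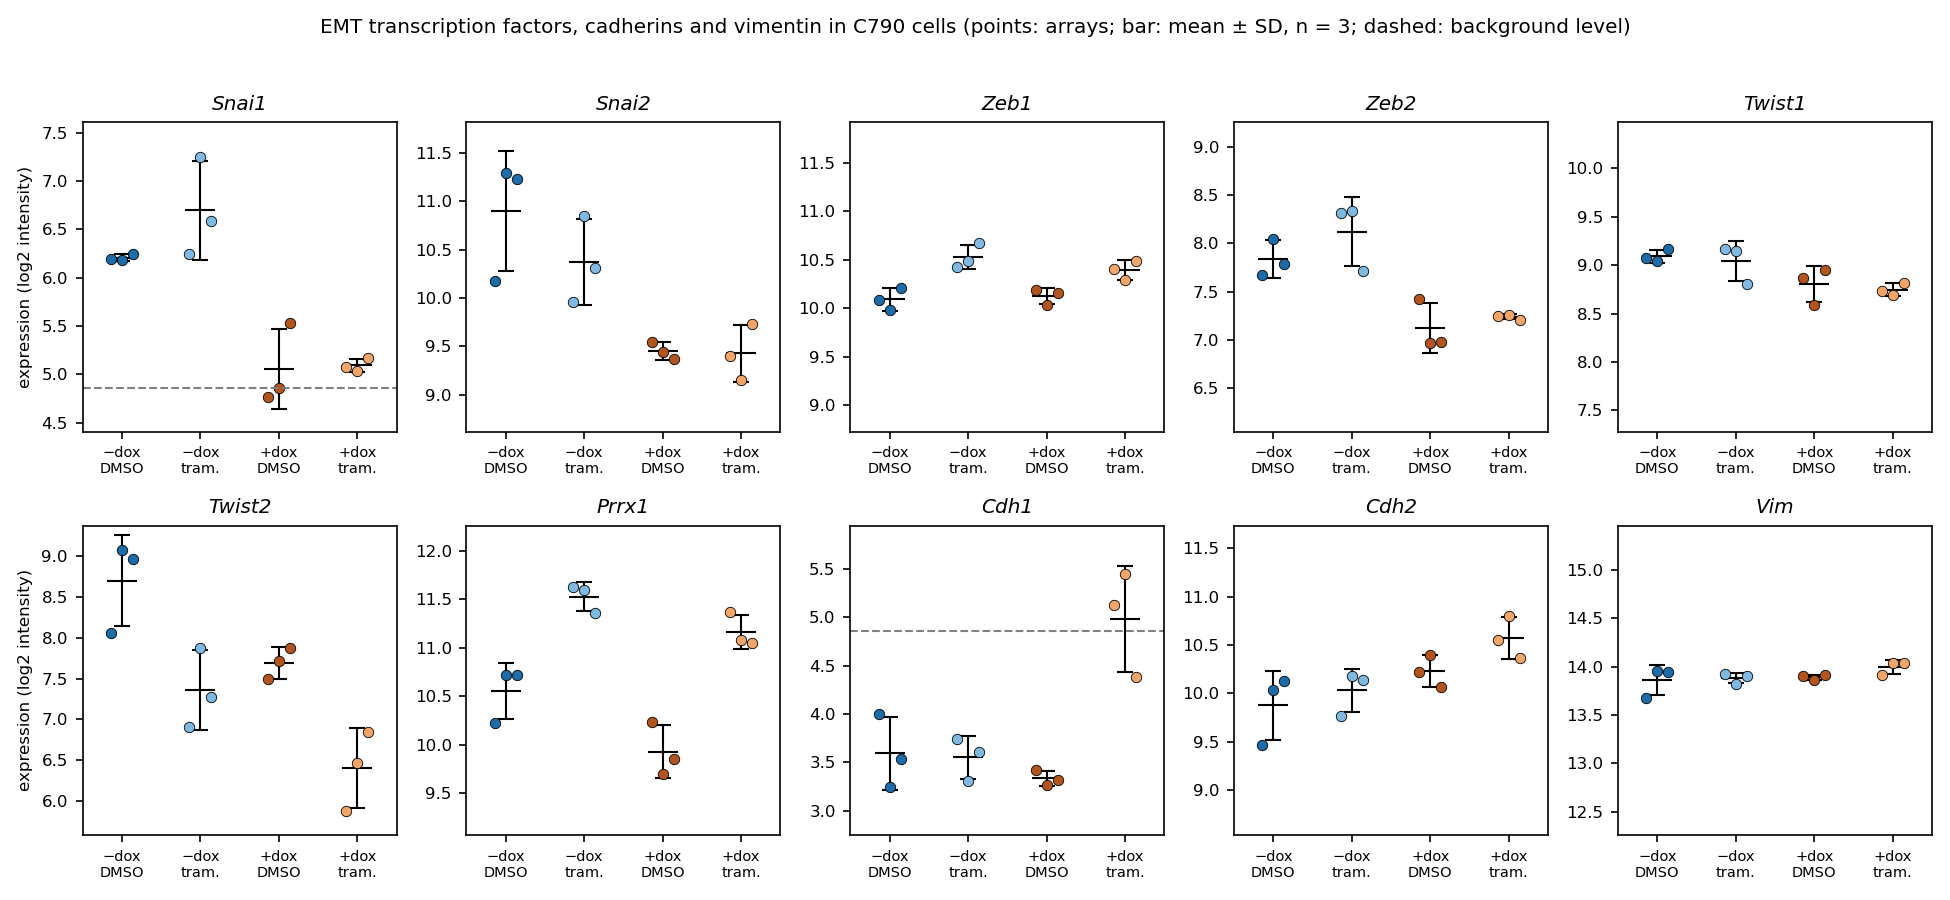
Expression of the 10 genes as log2 intensity (y axis) in the 4 groups (x axis, tram. for trametinib). Points are arrays, bars are mean ± SD of 3 arrays, and the dashed line in the Snai1 and Cdh1 panels is the background level of 4.86. Snai1, Snai2 and Zeb2 lie lower in both +dox groups than in both −dox groups, Prrx1 lies higher and Twist2 lower with trametinib, and Cdh1 is over the dashed line on 2 arrays of +dox trametinib only.

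Partial reprogramming went with lower Snai1, Snai2 and Zeb2 under DMSO, and with lower Snai1 and Zeb2 and a higher Cdh1 reading under trametinib, while Zeb1, Twist1 and vimentin passed no test in either. In +dox against −dox cells under DMSO, 3 of the 10 genes fell and 0 rose at an adjusted p under 0.05 (limma), where 6.15% of all genes were called, 3.28% lower and 2.87% higher. At an unadjusted p under 0.05 there were 6, as were 20.2% of all genes. The arrays of 5 genes did not overlap between the groups, as did those of 22.4% of all genes. The median log2 change of the 10 genes was -0.46, and that of all genes 0.01. Under trametinib, 2 fell and 1 rose, where 3.37% of all genes were called, 1.42% lower and 1.95% higher, with 7 at an unadjusted p under 0.05 (14.4% of all genes) and a median change of -0.33 (all genes -0.02). Here the arrays of 6 genes did not overlap, against 20.1% of all genes. These 2 comparisons share no array. In bulk RNA, fewer cells of a type and less RNA per cell cannot be told apart.

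Snai1 encodes SNAIL, a repressor of E-cadherin. In −dox DMSO cells its values were 6.19, 6.18 and 6.25, and in +dox DMSO cells 4.77, 4.86 and 5.53. In −dox trametinib cells they were 6.25, 7.25 and 6.59, and in +dox trametinib cells 5.08, 5.04 and 5.17. Every +dox array lay under every −dox array, and 2 of the +dox DMSO arrays were under the background level. Snai1 fell with dox under DMSO, by 1.15 on the log2 scale (standard error 0.24, adjusted p = 0.018 from limma), and under trametinib, where the change was -1.60 (adjusted p = 0.0041). With trametinib itself it changed by 0.49 in −dox cells (adjusted p = 0.18) and by 0.04 in +dox cells (adjusted p = 0.935). Under DMSO the call was lost without −dox DMSO array 3 (-1.13, adjusted p = 0.061) and without +dox DMSO array 2 (-1.06, adjusted p = 0.082), and under trametinib it was kept without any single array. Over the 12 arrays the genes most like it were Aebp1 (r = 0.96), Rasl11a (r = 0.95) and Zbtb42 (r = 0.95), as a description over arrays of shared groups.

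Snai2 encodes SLUG, the family member that melanocytes use. Its values were 10.18, 11.29 and 11.23 in −dox DMSO, 9.55, 9.44 and 9.37 in +dox DMSO, 9.96, 10.85 and 10.31 in −dox trametinib and 9.40, 9.15 and 9.73 in +dox trametinib cells. The +dox arrays were again all lower than the −dox arrays. It fell by 1.45 with dox under DMSO (standard error 0.30, adjusted p = 0.016), while the change under trametinib was -0.95 (standard error 0.30, adjusted p = 0.13). Without −dox DMSO array 1, which is the lowest of its group, the changes were -1.81 (adjusted p = 0.0020) under DMSO and -0.95 (adjusted p = 0.028) under trametinib, and trametinib then also lowered Snai2 in −dox cells (-0.89, adjusted p = 0.019, against -0.53 and 0.24 with it). The DMSO call was lost without −dox DMSO array 2 (adjusted p = 0.056) or 3 (0.067) and without +dox DMSO array 2 (0.063) or 3 (0.070). The second Snai2 probe set, 1418673_at, with a mean of 7.97, changed by -1.07 and -0.74 with dox, neither of which passed the test (adjusted p = 0.10 and 0.40). The genes most like Snai2 were Ephx2 (r = 0.95), Il1r1 (r = 0.95) and Enpep (r = 0.94).

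Zeb2 is the ZEB factor of the melanocyte lineage. It gave 7.67, 8.05 and 7.79 in −dox DMSO, 7.42, 6.97 and 6.98 in +dox DMSO, 8.31, 8.34 and 7.71 in −dox trametinib and 7.25, 7.26 and 7.21 in +dox trametinib cells. The groups with and without dox did not overlap under either treatment, though −dox DMSO array 1 at 7.67 and +dox DMSO array 1 at 7.42 came close. Zeb2 fell by 0.71 with dox under DMSO (standard error 0.18, adjusted p = 0.042) and changed by -0.88 under trametinib (adjusted p = 0.023). Both calls are the least firm of those of the 3 factors. Under DMSO the call was lost in 7 of the 12 fits that left out 1 array, with adjusted p between 0.060 and 0.16, and under trametinib in 5 of them, between 0.054 and 0.11. Under DMSO these fits left out −dox DMSO array 2 or 3, +dox DMSO array 2 or 3, or any +dox trametinib array. Under trametinib they left out −dox trametinib array 1 or 2 or any +dox trametinib array. Without a +dox trametinib array the change under DMSO stayed at -0.71. Those arrays enter that test only through the shared estimate of the spread. In the limma fit of probe sets one by one, the brightest Zeb2 probe set passed under trametinib (adjusted p = 0.032) but not under DMSO (0.056). None of the other 4 probe sets of Zeb2 passed the test. They changed with dox by -0.14 to -0.28 under DMSO and by -0.09 to -0.68 under trametinib. Of these, 1454200_at lay at 3.17 to 4.46, under the background level. The mean over all 5 probe sets, 1454200_at included, changed by -0.32 (adjusted p = 0.24) and -0.51 (adjusted p = 0.076). Eif4e3 (r = 0.93), Ppp1r3b (r = 0.92) and Sytl2 (r = 0.92) had the most like patterns.

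Zeb1, the other ZEB repressor, passed no test with dox. Its values ran from 9.98 to 10.21 in −dox DMSO and from 10.03 to 10.19 in +dox DMSO cells, a change of 0.04 with a 95% interval from -0.19 to 0.26. With trametinib the values were 10.43, 10.49 and 10.67 in −dox and 10.41, 10.29 and 10.49 in +dox cells, all above the arrays with DMSO. Without dox Zeb1 rose by 0.44 (standard error 0.10, adjusted p = 0.011), a call that no left-out array ended. In +dox cells the change was 0.27 (adjusted p = 0.081), which passed the test with the replicate number as a block (adjusted p = 0.042). The difference between the responses, -0.17, had an adjusted p of 0.72. The other probe sets of Zeb1 were not called, and 1 of them had the opposite sign. 1443005_at, with a mean of 6.24, changed by 0.25 (adjusted p = 0.25) and 0.06 with trametinib. 1446127_at changed by -1.09 and -1.08, opposite in sign, and ranged from 4.39 to 8.21 with the highest value on −dox DMSO array 1. 1420243_at changed by 0.19 and 0.11 and lay at 3.03 to 3.54, under the background level. With the mean of all 4 probe sets in place of the first, the change in −dox cells was -0.05 (adjusted p = 0.89), so the rise of Zeb1 rests on its brightest probe set. Rpain (r = 0.95), Adarb1 (r = 0.93) and Tmtc2 (r = 0.93) followed it most closely.

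Among the TWIST factors, Twist2 fell with trametinib in both cell states and Twist1 passed no test in any comparison. Twist2 gave 8.06, 9.08 and 8.97 in −dox DMSO, 6.91, 7.88 and 7.28 in −dox trametinib, 7.49, 7.72 and 7.88 in +dox DMSO and 5.88, 6.47 and 6.85 in +dox trametinib cells. All arrays with trametinib were below the arrays with DMSO of the same cells, and +dox arrays below −dox arrays of the same treatment. Twist2 fell with trametinib in both, with a change of -1.35 (standard error 0.32, adjusted p = 0.012) without dox and of -1.30 (adjusted p = 0.011) with it. The latter call was lost without +dox trametinib array 1, the lowest (-1.04, adjusted p = 0.055). With dox it changed by -1.01 under DMSO (adjusted p = 0.098) and by -0.96 under trametinib (adjusted p = 0.17), which did not pass. With the replicate number as a block both did (adjusted p = 0.012 and 0.020), as did the DMSO change without −dox DMSO array 1 (-1.33, adjusted p = 0.028). Twist1 ranged only from 8.59 to 9.17 over the 12 arrays, with changes of -0.29 with dox under DMSO (adjusted p = 0.22), -0.29 under trametinib (adjusted p = 0.31), and -0.05 and -0.06 with trametinib. The 95% interval of its dox change under DMSO ran from -0.57 to -0.01. The genes nearest to Twist2 were Rassf5 (r = 0.97), Spats2 (r = 0.96) and Smpd5 (r = 0.96).

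Prrx1 rose with trametinib in both cell states. Its values were 10.22, 10.72 and 10.72 in −dox DMSO against 11.63, 11.60 and 11.36 in −dox trametinib cells, and 10.23, 9.70 and 9.85 in +dox DMSO against 11.37, 11.08 and 11.05 in +dox trametinib cells. No array with DMSO reached any array with trametinib. The rise was 0.98 without dox (standard error 0.17, adjusted p = 0.0022) and 1.24 with dox (adjusted p = 0.00040), and both calls were kept without any single array. The difference between the responses was 0.26 (adjusted p = 0.75). With dox, Prrx1 changed by -0.63 under DMSO (adjusted p = 0.060) and by -0.36 under trametinib (adjusted p = 0.38). The former passed without −dox DMSO array 1 (-0.79, adjusted p = 0.019) or +dox DMSO array 1 (-0.78, adjusted p = 0.026).

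Of the other 5 Prrx1 probe sets, 4 rose with trametinib in −dox cells, by 0.92 to 1.15, and 3 of these in +dox cells. The exception, 1425527_at, changed by 0.86 there (adjusted p = 0.11). 1439774_at stood apart in size, at 8.71, 8.25 and 8.39 in −dox DMSO, 7.89, 7.13 and 6.93 in +dox DMSO, 9.86, 9.76 and 9.16 in −dox trametinib and 9.85, 9.59 and 9.38 in +dox trametinib cells. It rose by 2.29 with trametinib in +dox cells, and it fell by 1.13 with dox under DMSO (adjusted p = 0.038) where the others were not called. 1458004_at remained between 2.74 and 3.04, under background. Prrx1 followed Trip4 (r = 0.99), Laptm4a (r = 0.98) and Syap1 (r = 0.98) most closely, all widely expressed genes. The plot of probe sets shows these readings side by side.

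**Figure D2:**
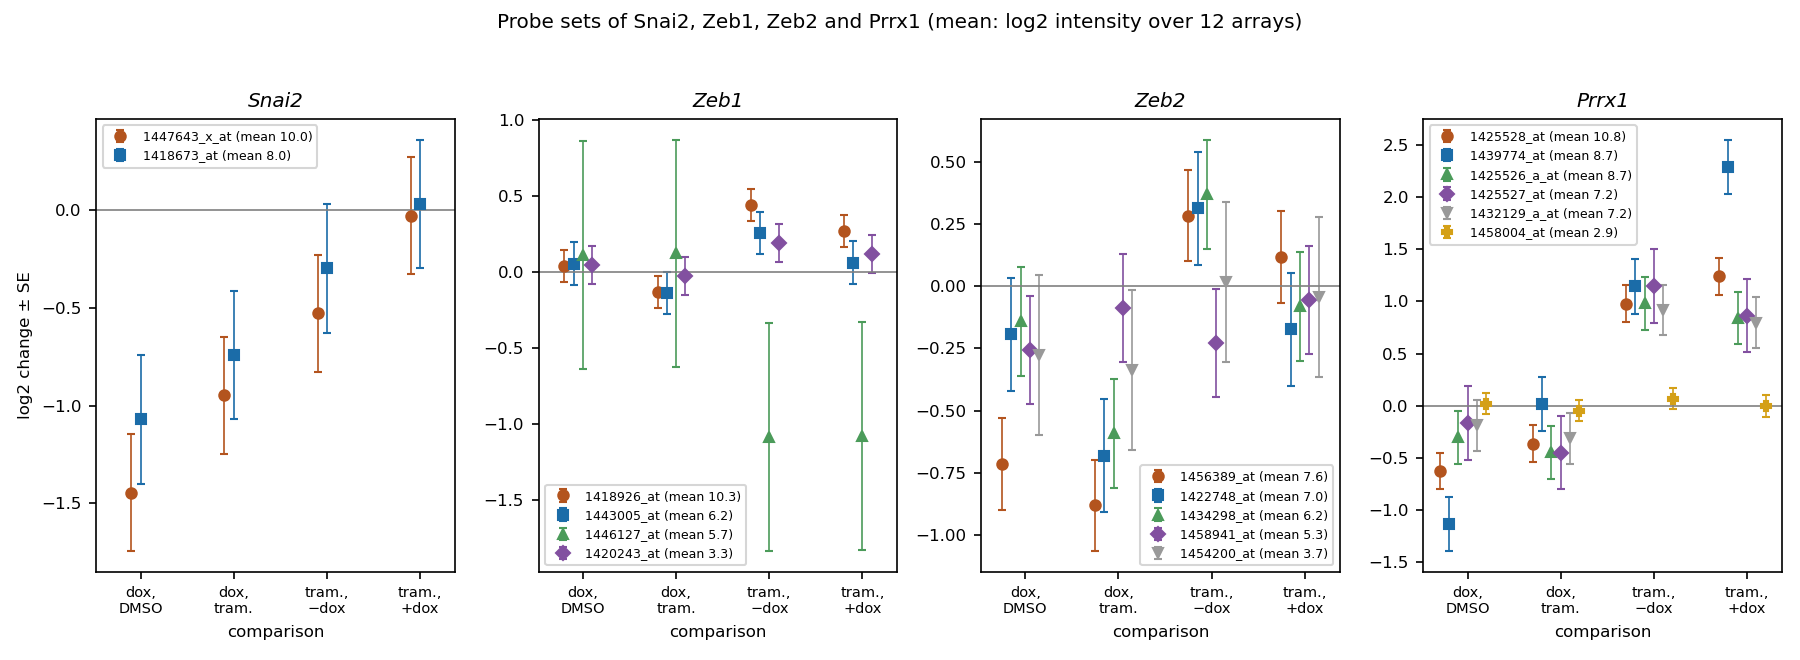
Log2 changes (y axis, points with ± SE) of every probe set of Snai2, Zeb1, Zeb2 and Prrx1 in the 4 comparisons between groups (x axis). The legend gives each probe set's mean log2 intensity over the 12 arrays. The Zeb1 probe set 1446127_at lies near -1.09 with trametinib, where the brightest one lies above 0, and the Prrx1 probe set 1439774_at reaches 2.29.

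Trametinib was followed by calls of 3 of the 10 genes in −dox cells, where 22.4% of all genes were called (11.6% higher and 10.8% lower), and of 3 in +dox cells, where 26.2% were (13.8% higher and 12.5% lower), so the counts are close to those of genes at large. Arrays did not overlap for 3 and 4 genes, against 35.6% and 40.7% of all genes. Prrx1 and Twist2 were called in both cell states, in opposite directions, Zeb1 in −dox and Cdh1 in +dox cells. The groups of these comparisons share no array with each other, but each comparison shares a group with the comparisons of dox. All of them share the estimate of the spread.

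Cdh1, the epithelial cadherin that SNAI and ZEB factors repress, was near or under background. Its values were 4.0, 3.25 and 3.54 in −dox DMSO, 3.74, 3.31 and 3.61 in −dox trametinib, 3.42, 3.27 and 3.32 in +dox DMSO, and 5.13, 5.45 and 4.38 in +dox trametinib cells. All 9 arrays of the first 3 groups were under the level of 4.86, and so was 1 array of the last. As measured, the change with trametinib in +dox cells came to 1.65 with a standard error of 0.25 (adjusted p = 0.00072), and that with dox under trametinib 1.43 (adjusted p = 0.011). Since the lower groups were not above background, the rise is at least 0.13 in both. The dox call was lost without −dox trametinib array 2 (1.31, adjusted p = 0.055) or +dox trametinib array 1 (1.36, adjusted p = 0.052). At the 99th percentile of the sensory receptors (5.42), no group mean of Cdh1 was above background, and those of Snai1 in both +dox groups were not, so the falls of Snai1 would be at least 0.79 and 1.28.

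With dox, the response of Cdh1 to trametinib exceeded that without dox by 1.69 as measured (standard error 0.36), with an unadjusted p of 0.00064 and an adjusted p of 0.093. As 3 of the 4 means behind it were not above background, the size of this difference is not known, and no bound on it is given. So 0 of the 10 genes were called for this difference by limma, where 0.33% of all genes were, and 1 had an unadjusted p under 0.05, where 11.6% of all genes had. It passed with array weights (adjusted p = 0.0095) and without +dox trametinib array 3 (2.00, adjusted p = 0.024), which is the array under the background level. One of the 3 genes most like Cdh1 was Vmn1r51 (r = 0.93), a vomeronasal receptor, at 2.93, 3.10, 3.04 and 4.25 in −dox DMSO, −dox trametinib, +dox DMSO and +dox trametinib cells, and the others were Them5 (r = 0.95) and Crhr2 (r = 0.93). The part that this shared pattern of a dim receptor probe set has in the Cdh1 reading was not tested.

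Cdh2 and vimentin, the mesenchymal partners, were bright in all groups and passed no test. Cdh2 gave 9.47, 10.03 and 10.13 in −dox DMSO, 10.22, 10.40 and 10.07 in +dox DMSO, 9.77, 10.18 and 10.14 in −dox trametinib and 10.55, 10.80 and 10.37 in +dox trametinib cells. With dox it changed by 0.35 under DMSO (95% interval from -0.06 to 0.77, adjusted p = 0.34) and by 0.54 under trametinib (0.13 to 0.96, adjusted p = 0.18), where the arrays did not overlap. Its second probe set, 1449244_at, changed by 0.27 and 0.51. Vimentin lay between 13.68 and 14.04 on all arrays, in a table whose highest value was 14.46. Its dox change of 0.03 under DMSO had a 95% interval from -0.19 to 0.24, and its other 2 probe sets changed by 0.07 each. The plot of changes with intervals shows all 10 genes in the 5 comparisons.

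**Figure D3:**
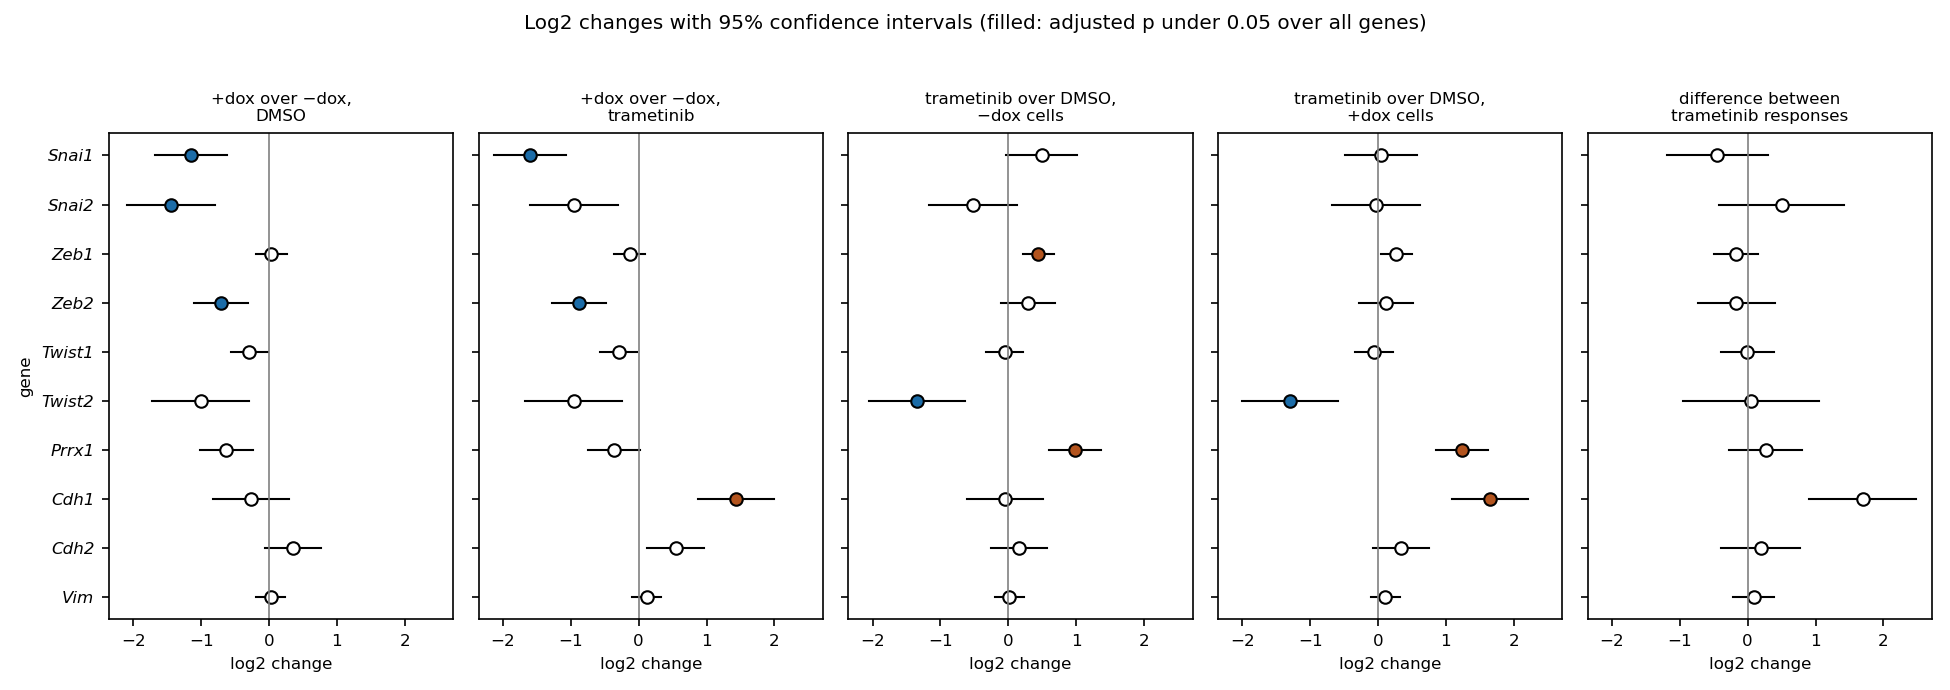
Log2 changes (x axis) with 95% confidence intervals from limma for the 10 genes (y axis) in the 5 comparisons (panels), with filled points for an adjusted p under 0.05. Filled points stand on the left for Snai1, Snai2 and Zeb2 in the first panel, for Snai1 and Zeb2 in the second, and on the right for Prrx1 in both trametinib panels. The last panel holds no filled point. Its Cdh1 point at 1.69 rests on 3 means under background.

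Among 29 other measured epithelial genes, of which 14 were above background in some group, dox raised 1 under DMSO, the desmocollin gene Dsc2, whose means of 3.85 and 4.48 were both under background and whose call was lost with the replicate block (adjusted p = 0.057) and in 11 of 12 fits with an array left out. Under trametinib, dox changed 0 (limma). Of all genes, 6.15% were called with dox under DMSO and 3.37% under trametinib. Trametinib lowered 3 in −dox cells and 1 in +dox cells, where 22.4% and 26.2% of all genes were called. Krt19, a keratin of simple epithelia, changed by -1.20 without dox (adjusted p = 0.010) and fell below background with it, by at least 1.51, and Jup, the junction protein plakoglobin, changed by -0.52 in −dox cells (adjusted p = 0.013). The third gene, Marveld2 of tricellular junctions, had means of 3.51 and 3.01, both under background, and kept its call in 3 of 12 fits with an array left out. The list median stayed within -0.04 and 0.07 in these comparisons, and that of all genes within -0.02 and 0.06. No epithelial gene rose together with Cdh1 in +dox trametinib cells by this test.

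Of 21 other mesenchymal genes, dox lowered 4 and raised 0 under DMSO, and lowered 2 and raised 0 under trametinib. Of all genes, 3.28% were called lower and 2.87% higher under DMSO, and 1.42% and 1.95% under trametinib. The list medians were -0.18 and -0.47, and those of all genes 0.01 and -0.02. Fn1, the matrix protein fibronectin, fell in both, with changes of -1.80 (adjusted p = 0.00054) and -1.28 (adjusted p = 0.0035). Pdgfrb, a growth factor receptor of mesenchymal cells, fell by 2.40 under DMSO (adjusted p = 0.023), and Tnc, the matrix protein tenascin C, changed by -3.27 under trametinib (adjusted p = 0.0088). Foxc2 and the integrin gene Itgb3 also fell under DMSO, Foxc2 to below background, by at least 0.67. Trametinib raised 2 and lowered 2 in −dox cells, and raised 1 and lowered 5 in +dox cells, shares of the list near those of all genes called (22.4% and 26.2%). S100a4, a calcium-binding protein of motile cells, fell in both (-1.04 and -1.39), as did Itgb3, to below background (by at least 1.14 and 0.16), while Axl, a receptor kinase, changed by -0.90 in +dox cells (adjusted p = 0.0084), the tropomyosin gene Tpm2 also by -0.90 (adjusted p = 0.010) and the galectin gene Lgals1 by -0.85 (adjusted p = 0.025). Tnc rose in −dox cells by 1.94 (adjusted p = 0.029), Cald1, the actin-binding caldesmon, by 0.32 (adjusted p = 0.049, lost with the replicate block at 0.058), and Nt5e, an ectonucleotidase of mesenchymal stem cells, in +dox cells by 1.86 (adjusted p = 0.040). The calls of Fn1, of Tnc with dox and of S100a4, Axl and Tpm2 in +dox cells held without any single array, while that of Pdgfrb held in 8, that of Tnc with trametinib in 8 and that of Nt5e in 5 of 12 such fits.

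Markers of fibroblasts moved with dox as well. Of 7 such genes, Pdgfra, Dcn, Col1a1 and Col3a1 were above background, and Lum, Col1a2 and Dpt were under it. All 4 fell with dox under DMSO, with changes from -2.07 (Pdgfra) to -2.85 (Col3a1), where 3.28% of all genes were called lower. Under trametinib 3 fell, where 1.42% of all genes were called lower, and the call of Pdgfra was lost with the replicate block (adjusted p = 0.055). The mean log2 level of the 7 genes was 6.92 to 7.0 on the −dox DMSO arrays, 7.45 to 7.61 with trametinib, 5.41 to 5.82 on the +dox DMSO arrays and 6.36 to 6.57 with trametinib. With trametinib Col1a1, Col3a1 and Dcn rose in both cell states, Dcn by 1.45 and 3.33, while Pdgfra fell in −dox cells (-0.96, adjusted p = 0.030). Of all genes, 22.4% were called with trametinib in −dox cells and 26.2% in +dox cells. The part of these fibroblast genes in the changes of Snai1, Snai2, Zeb2, Prrx1 and the mesenchymal genes was not tested.

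Of 15 classical cadherins and catenins other than Cdh1 and Cdh2, 0 changed with dox under either treatment by limma. With dox, 6.15% of all genes were called under DMSO and 3.37% under trametinib, so a count of 0 is close to that of genes at large. Trametinib raised 2 and lowered 1 in −dox cells and raised 3 in +dox cells. The shares of all genes called were 22.4% and 26.2%. Ctnnd1 (p120 catenin) rose by 0.43 (adjusted p = 0.025) and by 0.62 (adjusted p = 0.0026), and Ctnnb1 (beta-catenin) by 0.48 in +dox cells (adjusted p = 0.0060). Ctnna1 (alpha-catenin) rose by 0.30 there, a call that ended with the replicate block (adjusted p = 0.052), and Cdh15 by 0.39 in −dox cells, from 4.92, near background.

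TGF-beta and BMP signals are known inducers and modulators of EMT. Of 14 measured genes of these pathways, all above background, dox lowered 2 under DMSO, and under trametinib lowered 3 and raised 1. Of all genes, 6.15% were called with dox under DMSO and 3.37% under trametinib. Bmp4 fell in both, with changes of -1.59 (adjusted p = 0.0077) and -1.94 (adjusted p = 0.0033), calls that held without any single array, and so did Tgfb3, with changes of -1.08 (adjusted p = 0.021) and -1.22 (adjusted p = 0.015), each kept in 8 of 12 such fits. Tgfb1 fell by 1.03 under trametinib (adjusted p = 0.034, kept in 5 of 12 such fits). The rise of 0.87 of Hmga2, a chromatin factor that induces Snai1 and Twist1, was lost with the replicate block (adjusted p = 0.052). With trametinib Hmga2 fell from means of 11.19 and 11.12 in −dox and +dox cells, with changes of -3.58 (adjusted p = 4.3e-06) and -2.65 (adjusted p = 1.2e-05). The ligand Tgfb2 and the receptors Tgfbr1 and Acvr1 rose in both cell states, Tgfb2 by 1.48 and 1.12, Tgfbr1 by 0.57 and 1.11, Acvr1 by 0.90 and 0.83. The co-receptor Tgfbr3 fell in both, with changes of -2.20 and -1.12, as did the signal transducer Smad3 (-0.72 and -0.34). In all, trametinib raised 3 and lowered 3 of the 14 in −dox cells, and raised 5 and lowered 3 in +dox cells. In these 2 comparisons, 22.4% and 26.2% of all genes were called.

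**Figure D4:**
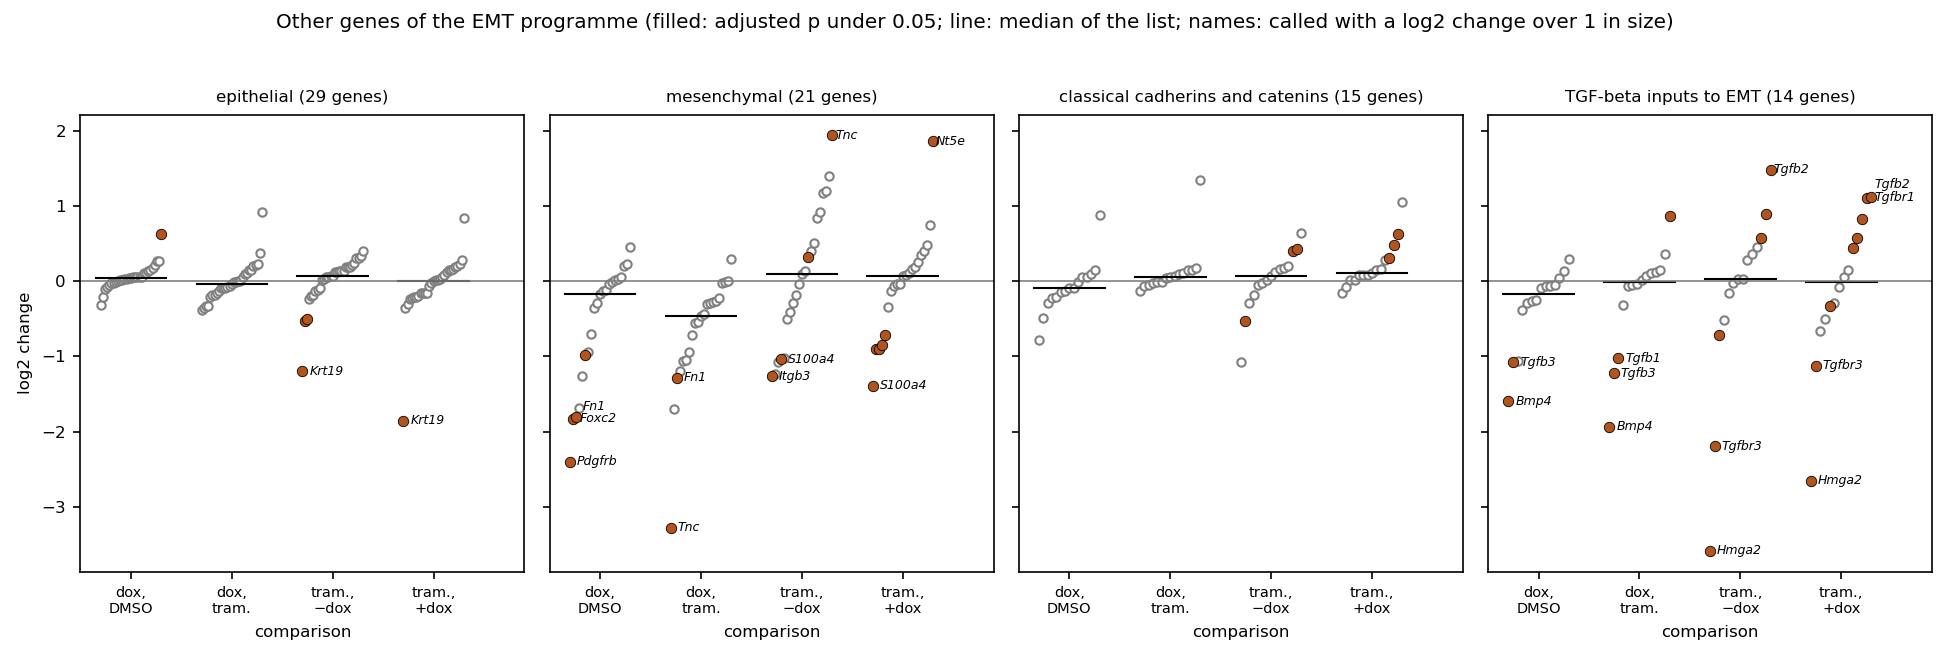
Log2 changes (y axis) of each gene of 4 lists (panels) in the 4 comparisons between groups (x axis), ordered by size within a comparison. Filled points have an adjusted p under 0.05, lines are list medians, and names mark called genes that changed by over 1. Filled points with dox lie below 0 in the mesenchymal panel, and Hmga2 at -3.58 is the lowest point of the TGF-beta panel.

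SNAI, ZEB and TWIST proteins act with corepressors and E-proteins, and of 14 measured genes of this kind 0 changed with dox under either treatment. The shares of all genes called with dox were 6.15% under DMSO and 3.37% under trametinib, so 0 is again close to genes at large. Trametinib lowered 3 in −dox cells, and lowered 3 and raised 1 in +dox cells, shares near those of all genes (22.4% and 26.2%). Ezh2, the histone methyltransferase, changed by -1.46 (adjusted p = 0.00056) and -0.79 (adjusted p = 0.014) in the 2 cell states. Tcf3, an E-protein that pairs with TWIST factors, changed by -0.62 with trametinib in −dox cells (adjusted p = 0.014 from limma). Kdm1a, the demethylase that SNAIL recruits, changed by -0.41 with trametinib in +dox cells (adjusted p = 0.023). The deacetylase gene Hdac2 changed by -0.35 (adjusted p = 0.029) and -0.36 (adjusted p = 0.023). Ep300 rose by 0.61 in +dox cells (adjusted p = 0.0059). Of 12 genes for the turnover of these short-lived proteins, dox changed 0. Trametinib raised 2 and lowered 1 in −dox cells, and raised 2 and lowered 2 in +dox cells. The same shares of all genes apply (6.15% and 3.37% with dox, 22.4% and 26.2% with trametinib). Gsk3b, the kinase that marks SNAIL for degradation, rose by 0.75 (adjusted p = 0.0014) and by 1.10 (adjusted p = 0.00011). Usp37, a deubiquitinase of SNAIL, fell, with changes of -0.68 (adjusted p = 0.0035) and -0.76 (adjusted p = 0.0013). Of the ubiquitin ligase genes, Fbxw7 rose by 0.84 with trametinib in −dox cells (adjusted p = 0.0015 from limma). With trametinib in +dox cells, Siah1a rose by 0.48 and Fbxl5 changed by -0.66 (adjusted p = 0.012 for both). Levels of the proteins were not measured by these arrays.

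Vimentin belongs to the intermediate filaments. Of 14 other intermediate filament genes, 8 were above background. Dox raised 1 under DMSO, the neurofilament gene Nefl, by at least 0.45 (adjusted p = 0.032 from limma, kept in 7 of 12 fits with an array left out). It raised 0 under trametinib, and of all genes 2.87% and 1.95% were called higher with dox. Trametinib lowered Lmnb1, a nuclear lamin, in both cell states, with changes of -1.75 (adjusted p = 0.00038) and -1.13 (adjusted p = 0.0036). It also lowered Des, the muscle filament desmin, in −dox cells (-0.57, adjusted p = 0.0031). Of all genes, 10.8% were called lower with trametinib in −dox cells and 12.5% in +dox cells. For the genes of these 7 lists, 0 were called for the difference between the trametinib responses by limma.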

How the data were processed

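RNA of C790 cells was hybridised to 12 Affymetrix GeneChip Mouse Genome 430 2.0 arrays, 3 for each of 4 groups. The authors normalised the array files by RMA in Chipster, and deposited one log2 intensity per probe set and array, which was taken unaltered. A genome build and detection calls are not given in the sources used here. Control probe sets (64) and those with several genes (932) or no gene (9160) were left out of 45101. No filter on low values was applied. The background level of 4.86 is the 95th percentile over 86 probe sets for sensory receptors (olfactory, vomeronasal, taste) of their mean level.

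Genes were fitted with limma 3.58.1 in R 4.3.3, with a mean per group over 12 arrays. The Benjamini-Hochberg adjustment of each comparison ran over 18193 genes. The fit was tested on simulated data. The genes and lists were chosen with earlier results of these data known, so no list was tested as a set and no p-value was adjusted over a list. Named are the 10 genes, up to 4 called genes of a list with the smallest p in a comparison and 2 in the other direction, and the 3 genes most correlated with each called gene. To see whether replicate numbers pair the arrays, deviations from the group means were correlated between arrays of the same number. All 3 correlations were over 0.1 in both dox comparisons (0.17 to 0.34 with DMSO, 0.21 to 0.29 with trametinib) and for trametinib with dox (0.16 to 0.45), and not without dox (0.02 to 0.46). Pairing is therefore possible in the first 3 comparisons, although no label states it. The main fits hold no replicate block, so all calls and shares given are unpaired unless the block is named. The value with a replicate block stands beside a result where it changes the call. Other settings were the compared groups alone, the mean of probe sets, each probe set alone, genes above background, quantile normalisation, median centring, array weights, trended robust eBayes, an unmoderated test, other thresholds and leaving out each array. Figures were drawn with matplotlib 3.10.9. The number of arrays limits the precision.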

Additional observations from a re-analysis of the deposited data

How the results depend on the processing

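Of 118 recomputed counts of called genes among the 10, 98 stayed within 1.5 times the count given, and of 1080 recomputed changes 981 kept their direction and side of the threshold, 37 lost and 17 gained the call and 45 changed sign. Of the latter, 1 concerned a called change (Zeb1 with trametinib in −dox cells, -0.053 by the mean of its probe sets), and 0 were called in the other setting. Counts of the 10 genes, given as 3 in each of the 4 comparisons between groups, became 1 for dox under DMSO in the compared groups alone. With array weights they were 5 for dox under DMSO, 5 under trametinib, 5 for trametinib in −dox cells and 1, in place of 0, for the difference between responses. The unmoderated test, run for the comparisons between groups, gave 0 for both dox comparisons and for trametinib in −dox cells. An adjusted p under 0.01 left 0 for dox under DMSO, 1 under trametinib and 1 for trametinib in −dox cells, where a fold over 2 also left 1. With each array left out in turn, the counts ran from 0 to 5 for dox under DMSO, 1 to 4 under trametinib, 3 to 4 for trametinib in −dox cells, 2 to 3 in +dox cells and 0 to 1 for the difference. The count of 5 came without −dox DMSO array 1, 0 without −dox DMSO array 3 or +dox DMSO array 2, and the 1 under trametinib without −dox trametinib array 2 or +dox trametinib array 1. The replicate block changed no call of the 10 genes beyond those of Twist2 and Zeb1 given above. Of 93 calls of list genes, 49 held whichever array was left out, 87 with the block, and 0 changed sign in any setting. The background level was 4.59 and 5.42 at the 90th and 99th percentiles.

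The other changes of sign were all of uncalled values. With array weights, dox under DMSO gave -0.040 for Zeb1 and -0.049 for Vim, trametinib in −dox cells 0.033 for Cdh1, -0.0075 for Cdh2 and -0.066 for Vim, trametinib in +dox cells -0.13 for Snai1, and the difference 0.015 for Zeb2 and 0.083 for Twist1. With median centring, trametinib in −dox cells gave 0.08 for Twist1 and 0.09 for Cdh1, in +dox cells -0.0067 for Snai1, and the difference -0.13 for Twist2 and -0.093 for Vim. With the mean of probe sets, trametinib gave -0.07 for Vim in −dox cells, and 0.0033 for Snai2, -0.16 for Zeb1 and -0.047 for Zeb2 in +dox cells. Quantile normalisation gave -0.0036 for Twist2 in the difference. With an array left out, sign changes occurred within -0.018 to 0.10 for Zeb1 and -0.065 to 0.075 for Vim with dox under DMSO. For trametinib in −dox cells they occurred within -0.12 to 0.067 for Twist1, -0.22 to 0.16 for Cdh1, -0.05 to 0.28 for Cdh2 and -0.075 to 0.065 for Vim. In +dox cells the ranges were -0.10 to 0.28 for Snai1, -0.18 to 0.11 for Snai2 and -0.16 to 0.017 for Twist1, and for the difference -0.12 to 0.07 for Twist1 and -0.175 to 0.37 for Twist2. The cause was not tested.

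Over all genes, 1118, 614, 4072, 4772 and 60 were called for dox under DMSO and trametinib, trametinib in −dox and +dox cells, and the difference. Array weights gave 4086, 1427 and 7131 for the first 3 and 1066 for the difference, the unmoderated test 8, 0, 1479 and 2877, and the compared groups alone 550 for the first. Probe sets one by one, out of 34945, gave 6554 and 7684 with trametinib. The block gave 141 and median centring 217 for the difference. Leaving out an array gave 465 to 1297, 295 to 964 and, for the difference, 13 to 200. Median centring moved the median of all genes by 0.13 for trametinib in −dox cells and by -0.18 for the difference. Of the called genes it made 71.2% higher in place of 46.7%, 40.9% in place of 57.8%, 73.1% in place of 51.9% and, for the difference, 22.6% in place of 78.3%.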

Other observations

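Genes that mark other cell types gave a few single readings. Trp63, a transcription factor of basal keratinocytes, had a mean of 7.48 in −dox DMSO cells and was under background in the 3 other groups, a fall of at least 2.62 with dox (adjusted p = 0.0022 from limma) and with trametinib in −dox cells (adjusted p = 0.00055), and both calls held without any single array. The keratinocyte keratin Krt10 rose by 0.97 with trametinib in +dox cells (adjusted p = 0.0010). Itgam, an integrin of myeloid cells, rose by at least 0.74 with dox under DMSO (adjusted p = 0.014), to 5.60, and was back under background with trametinib (adjusted p = 0.013). Of the 6 measured leukocyte genes, Cd68, Csf1r and Cd3e were above background in every group, while Ptprc, the marker of all leukocytes, was under it in every group. Cd3e of T cells rose by 0.35 with trametinib in −dox cells (adjusted p = 0.034). Of 6 endothelial genes, Kdr rose by 0.41 with dox under DMSO (adjusted p = 0.049, kept in 1 of 12 fits with an array left out) and Vwf by 0.40 with trametinib in +dox cells (adjusted p = 0.030), with both means of Vwf under background. Mitf, the master regulator of melanocytes, rose by 1.22 with trametinib in +dox cells (adjusted p = 0.0077) and was the only one of the 12 melanocyte lineage genes called in any of the 5 comparisons.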
